A study of Mus musculus with 8 samples.

Results

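The genes described here are 34 genes known, in various tissues, to respond to glucocorticoid hormone, outside the small group that responds most strongly. They were chosen with earlier results of these data known. They were read on 8 single-colour arrays of RNA from the dorsal dentate gyrus, to see how far a difference between Cav3.1 KO and WT mice extended among them. A gene was taken where the symbol in the probe-to-gene table was identical to its name, and the brightest probe was kept where there were several. A probe was found for 32 of the 34 genes, among 19321 genes with a symbol and 23473 probes in all. Nedd9 and Zbtb16 had no probe under that symbol and were not analysed here. The probe of Cebpd, a C/EBP transcription factor gene, lay above the blank level on 1 of 8 arrays only and was not tested. The other 31 genes were detected on all 8 arrays, so none passed the filter on dim probes through a single group.

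WT and Cav3.1 KO were represented by 4 arrays each. All mice were males of strain C57BL/6J, 8 to 12 weeks old, per the labels, and no treatment is named. Cav3.1 is the T-type calcium channel whose pore is encoded by Cacna1g. The labels do not say how the allele was made, which cells lost the channel, or whether every array held RNA of a different animal, so the p-values cover only the spread among these samples, which could be technical. The Cacna1g probe differed by -0.08 (SE 0.0508, limma adjusted p 0.816), and since the sources used here do not place it relative to the deletion, it checks nothing.

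Glucocorticoids cross the cell membrane and bind the glucocorticoid receptor, held ready by heat shock chaperones, or the mineralocorticoid receptor, which is abundant in the hippocampus. The bound receptor enters the nucleus and attaches to short palindromic DNA elements near or far from genes. Its targets include transcription factors that carry the response further, inhibitors of growth factor signalling, metabolic enzymes that shift cells towards fat use, and metallothioneins. Many of these genes also answer to other signals, such as insulin, hypoxia, metals or neuronal activity.

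The promoters of the genes were searched for such elements because the genes were studied as a responsive group. The RefSeq table of GRCm38.p6 held 32 start sites for 27 of the 34 genes, and the 250 bases before each start were read on both strands. The strict palindrome, the arms AGAACA and TGTTCT with any 3 bases between them, was in 0 of the 27 genes and in 0.0111% of all genes in the table. A looser form, GNACA and TGTNC with any 3 bases between, was present in 3 of 27 genes (11.1%) against 0.44% of all genes. These were Map3k6, Mt1 and Fam107a, the last chosen after its values were seen, and their windows are shown with the match in capitals. The match began 181 bases before the start in Map3k6, 94 in Mt1 and 120 in the Fam107a window shown. In Fam107a it overlaps 1 of the 2 matches to the single arm TGTTCT. That arm was found in 3 of 27 genes (11.1%) against 18.2% of all genes. Metal response motifs, TGCACNC or TGCGCNC, were in 10 of 27 genes (37.0%) against 23.8%, with 3 matches in Mt2, whose window is shown with these in capitals. The E-box CACGTG was in 4 of 27 genes (14.8%) against 6.86%. A match is a description of the letters and not of binding. Map3k6 differed by 0.60 between the groups, Mt1 by 0.11 and Fam107a by -0.02, and a relation of matches to differences was not tested.
Map3k6, chr4:133240568-133240817, plus strand: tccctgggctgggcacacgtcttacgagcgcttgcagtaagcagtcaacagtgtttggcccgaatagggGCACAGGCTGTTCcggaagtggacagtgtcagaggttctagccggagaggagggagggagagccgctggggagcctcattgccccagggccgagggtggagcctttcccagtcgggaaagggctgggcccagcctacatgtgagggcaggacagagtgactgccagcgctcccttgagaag
Mt1, chr8:94178839-94179088, plus strand: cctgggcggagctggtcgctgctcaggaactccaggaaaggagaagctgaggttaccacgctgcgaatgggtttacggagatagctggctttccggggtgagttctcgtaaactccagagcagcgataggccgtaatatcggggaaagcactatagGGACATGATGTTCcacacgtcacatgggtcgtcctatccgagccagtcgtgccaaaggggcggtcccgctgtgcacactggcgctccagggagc
Fam107a, chr14:8309778-8310027, minus strand: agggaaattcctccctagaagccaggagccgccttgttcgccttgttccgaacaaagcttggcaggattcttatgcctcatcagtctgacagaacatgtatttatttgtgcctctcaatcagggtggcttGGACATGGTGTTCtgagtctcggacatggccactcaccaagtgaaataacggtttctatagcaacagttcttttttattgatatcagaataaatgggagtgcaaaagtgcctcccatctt
Mt2, chr8:94172368-94172617, plus strand: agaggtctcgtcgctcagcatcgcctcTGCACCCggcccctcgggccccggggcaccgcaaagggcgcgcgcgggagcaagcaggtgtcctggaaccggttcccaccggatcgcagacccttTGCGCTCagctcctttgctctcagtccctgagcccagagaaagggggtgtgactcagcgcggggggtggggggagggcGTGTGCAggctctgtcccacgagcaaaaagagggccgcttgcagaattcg

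Levels are log2 intensities after quantile normalisation, and a positive difference means a higher level in Cav3.1 KO. An offset of 50 added to every spot makes the differences of dim genes smaller than the true change. A second estimate, made by taking the mean of the blank spots off each value, is therefore added for the dimmer genes described singly. The test was limma over 21151 probes, with Benjamini-Hochberg adjustment over all of them and a threshold of 0.05.

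The arrays fell into 2 sets by the slopes between scan gains printed in the headers. The slope from the first to the third gain was 0.244 to 0.247 on WT replicates 1, 2 and 4 and Cav3.1 KO replicate 1, called scan set A. It was 0.235 to 0.236 on WT replicate 3 and Cav3.1 KO replicates 2, 3 and 4, called scan set B. Mean blank spots were also dimmer in set A, at 53.0 to 56.2, than in set B, at 59.7 to 63.4. Because set B held most of the Cav3.1 KO arrays, the main results below are also given with the scan set as a block or within each set. Markers of granule neurons, the main cells of the tissue, were detected for 7 of 7 genes on all 8 arrays. Of 15 marker lists, 14 overlapped between the groups, and 0 of their genes were undetected on every array. Of single probes 2.42% lay apart in the higher direction and 2.53% in the lower. Choroid plexus markers ranged most widely, from a mean of 6.44 to 9.03. Endothelial markers did not overlap, their mean lying between 7.81 and 7.90 in WT but between 7.61 and 7.74 in Cav3.1 KO (exact permutation p 0.0286), 4 of 6 genes being lower and 2 higher. Among these 6 genes 1 passed the limma test by itself, as did 1 of the 7 granule neuron markers, against 0.288% of all probes. The permutation p is not adjusted for the 15 lists, and how far that endothelial gene moves the mean was not tested. Microglial markers came close to the endothelial pattern, with 5 of 5 genes lower and an exact permutation p of 0.0571. Oligodendrocyte markers were lower in 4 of 4 genes, by a mean of -0.20, with overlapping groups (exact permutation p 0.286). Neutrophil markers went the other way, with 4 of 4 genes higher and overlapping groups. In bulk tissue fewer cells of a type and less RNA per cell cannot be told apart. The part of endothelial, microglial or oligodendrocyte content in the results below was not tested.

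Most of the genes were slightly higher without Cav3.1, but very few passed the test. A single gene, Hif3a, rose, and 0 fell. Of all probes 0.288% were called, 0.199% higher and 0.0898% lower. Of the 31 genes, 25 had a higher mean in Cav3.1 KO (80.6%), against 49.3% of all probes. An unadjusted limma p under 0.05 was reached by 13 genes in the higher direction (41.9%), against 3.76% of all probes, and by 2 in the lower direction (6.45%), against 4.34%. In 12 genes every Cav3.1 KO array lay above every WT array (38.7%), against 2.42% of all probes. In 1 gene, Cebpb, every Cav3.1 KO array lay below (3.23%), against 2.53%. The downward shares were thus near those of all probes. Because the genes were chosen with earlier results of these data known, the upward shares describe the list and are no independent evidence.

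The differences were small for most genes. Their median was 0.08 and their mean 0.16, while the median of all probes was -0.00078. The central part of the list, from the lower to the upper quartile, ran from 0.05 to 0.22, against -0.03 to 0.03 for all probes. Past 1.5-fold were 3 genes in the higher direction, Ddit4, Rhou and Map3k6 (9.68%, against 0.147% of all probes), and 0 in the lower direction (against 0.0473%). The count was 1 without WT replicate 2, where Map3k6 alone was past it, 2 with the scan set as a block and 5 with the blank subtracted. The share of all probes past 1.5-fold was counted under the default processing only. These changes in the count are therefore not read as a result about the genes. An adjusted limma p under 0.1 was reached by 6 genes in the higher direction (19.4%, against 0.364% of all probes) and by Cebpb in the lower direction (3.23%, against 0.217%). Among the 16 genes with an unadjusted p of 0.05 or more, the median was still 0.06 and the range -0.03 to 0.27.

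**Figure D1:**
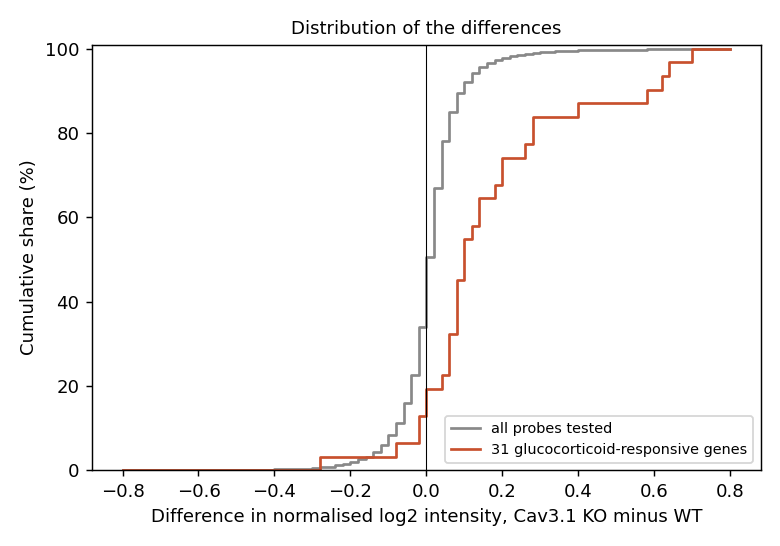
Cumulative share of genes or probes (vertical axis, percent) with a difference in normalised log2 intensity up to the value on the horizontal axis, for the 31 glucocorticoid-responsive genes and for all 21151 probes tested. The curve of the genes lies to the right, with a median of 0.08 against -0.00078.

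Array by array, the higher values were shared by all 4 Cav3.1 KO arrays. The mean over the 31 genes was 7.75, 7.69, 7.77 and 7.72 on WT replicates 1 to 4. On Cav3.1 KO replicates 1 to 4 it was 7.85, 7.88, 7.89 and 7.94. Every Cav3.1 KO array was above every WT array, with group means of 7.73 ± 0.0359 (SD, n = 4) and 7.89 ± 0.0347 (SD, n = 4). Each WT array had 6 to 12 of the 31 genes above that gene's own mean over 8 arrays, and each Cav3.1 KO array had 20 to 25. Cav3.1 KO replicate 1, the Cav3.1 KO array of scan set A, had 20, and WT replicate 3, the WT array of scan set B, had 12. The same count was not made over all probes. It follows in part from the higher group means of most genes, so it is no separate evidence.

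**Figure D2:**
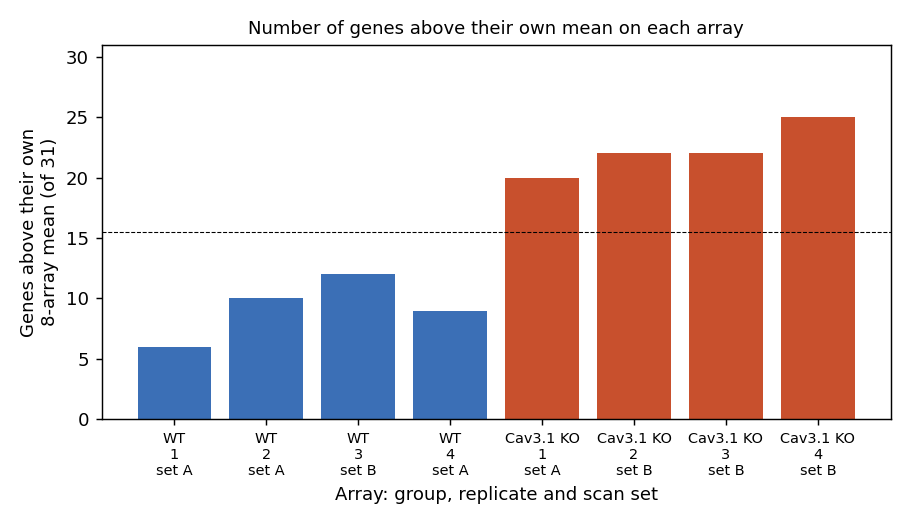
Number of the 31 genes above their own 8-array mean (bars, vertical axis) on each array, labelled by group, replicate and scan set, with WT in blue and Cav3.1 KO in red. The dashed line marks the midpoint of the count, and the WT bars reach 6 to 12 while the Cav3.1 KO bars reach 20 to 25.

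With the scan set as a block, the breadth was similar but no gene was called. Of the 31 genes, 24 were on the higher side, against 49.5% of all probes, and the median difference was 0.06. The unadjusted limma p was under 0.05 for 11 genes in the higher direction (35.5%, against 5.03% of all probes) and 2 in the lower direction (6.45%, against 4.95%). After adjustment 0 of the 31 genes passed, against 0.109% of all probes. The 2 genes that no longer reached an unadjusted p under 0.05 were Ddit4 (p 0.101) and Tgm2 (p 0.163). Within each of the scan sets Cav3.1 KO was higher for 19 genes (61.3%), against 27.0% of all probes, and a lower value for 4 genes (12.9%), against 27.3%. These values within a set compare 3 arrays with 1 and have no test.

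**Figure D3:**
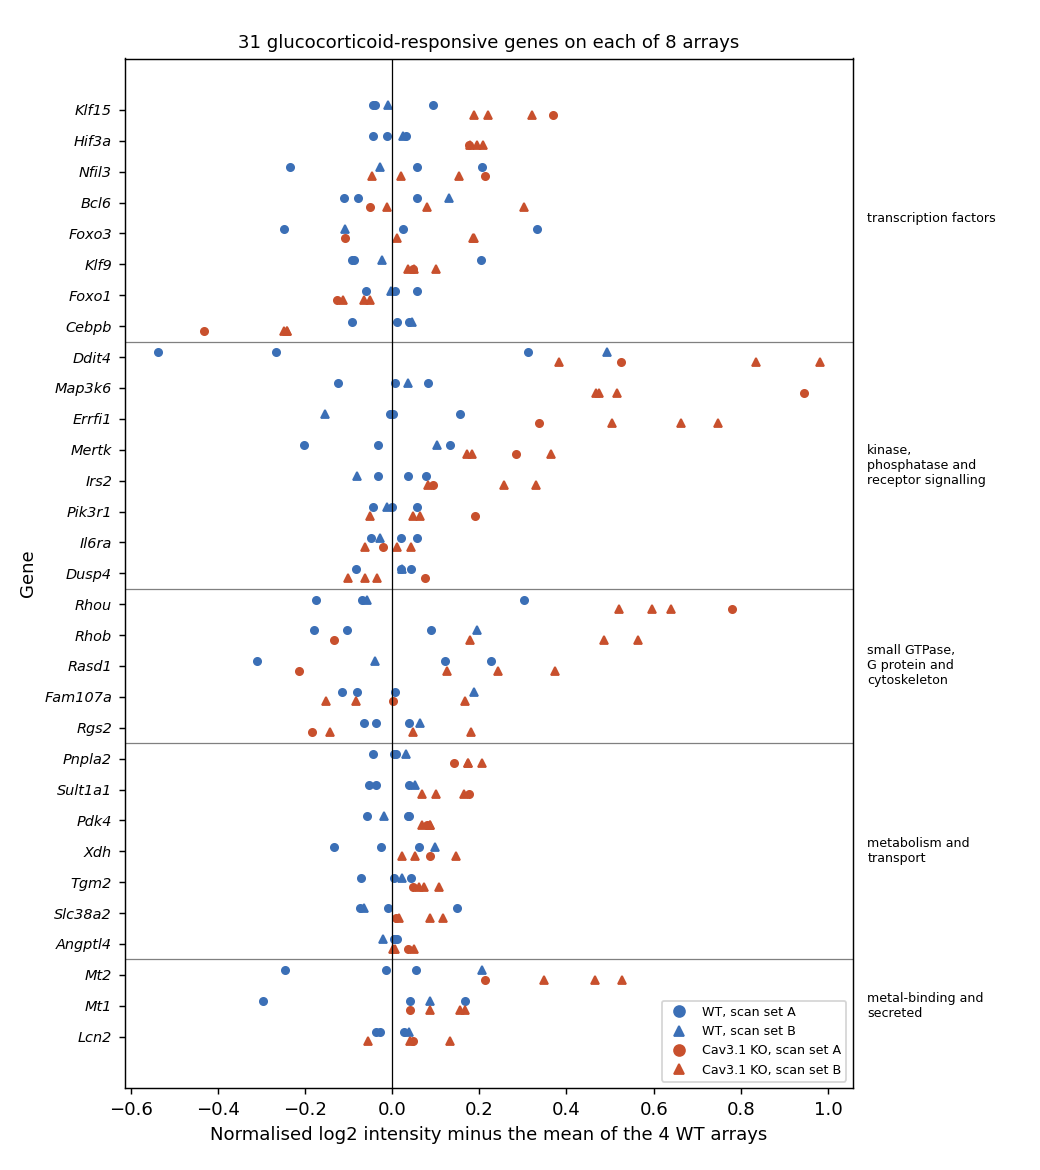
Normalised log2 intensity of each of the 31 genes on each array minus the mean of the 4 WT arrays (horizontal axis), by role, with WT in blue, Cav3.1 KO in red, circles for scan set A and triangles for scan set B. The groups are clearly apart for genes such as Hif3a, Map3k6, Rhou and Pnpla2, and apart on the lower side for Cebpb, while Klf9, Foxo3 and Fam107a overlap.

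Among transcription factors, 8 of 10 genes were tested, of which 6 were higher and 2 lower, against 49.3% of all probes higher. The median difference was 0.07, and Hif3a was the gene that passed. Hif3a encodes an alpha subunit of the hypoxia-inducible factors that can restrain the others. Its intensities were 6.05, 5.98, 6.05 and 6.01 in WT and 6.20, 6.20, 6.22 and 6.23 in Cav3.1 KO. All Cav3.1 KO arrays were above all WT arrays, and the Cav3.1 KO arrays lay close together. Hif3a rose by 0.19 (SE 0.0262, 95% interval 0.13 to 0.25, limma adjusted p 0.0406, exact permutation p 0.0286, the smallest that 4 against 4 allows). The probe was dim, its spots averaging 67.9 over the WT arrays and 80.9 over the others. With the blank subtracted the difference was 0.81, and in the authors' deposited value table it was 0.75. It was 0.18 within scan set A and 0.17 within set B. The call did not outlast the removal of any array, the adjusted p then running from 0.067 without WT replicate 2 to 0.15 without WT replicate 4, and it was 0.126 with the scan set as a block. A second, similarly dim Hif3a probe differed by 0.04 (SE 0.0331, adjusted p 0.897), and its groups overlapped.

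Klf15, a Krüppel-like factor that is a textbook target of the glucocorticoid receptor, gave 7.10, 6.97, 6.999 and 6.96 in WT. In Cav3.1 KO it gave 7.38, 7.33, 7.23 and 7.19. The groups did not overlap, and the difference was 0.27 (SE 0.0501, adjusted p 0.0988, 0.44 with the blank subtracted). Klf9, the related factor, behaved otherwise, as WT spanned 9.42 to 9.71 and Cav3.1 KO lay inside that range at 9.55 to 9.61. Klf9 differed by 0.06 (SE 0.0644, adjusted p 0.959), and the sign turned with median scaling and in the value table. The dim second probes of Klf9 and Foxo3 differed by -0.0017 and 0.0066.

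Cebpb was the gene that ran furthest the other way. It encodes a C/EBP factor of inflammatory and metabolic programmes, and its WT arrays read 8.55, 8.68, 8.69 and 8.65. The Cav3.1 KO arrays read 8.21, 8.40, 8.39 and 8.40, all below WT, with replicate 1 lowest. The difference of -0.29 (SE 0.053, adjusted p 0.0984) did not pass, and it was -0.35 (adjusted p 0.0619) with the scan set as a block. Foxo1, a forkhead factor held out of the nucleus by insulin signalling, read 7.11, 7.06, 7.05 and 6.99 in WT and 6.92, 6.98, 6.94 and 6.998 in Cav3.1 KO. The groups overlapped at WT replicate 4, and the difference was -0.09 (SE 0.033, adjusted p 0.506). Foxo3, its relative, differed by 0.07 (SE 0.125), the repressor gene Bcl6 by 0.08 (SE 0.086) and the bZIP repressor gene Nfil3 by 0.08 (SE 0.0963), all with overlapping groups. The sign turned for Bcl6 with the scan set as a block and for Foxo3 in the value table.

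Of the 5 groups of genes, the signalling genes had the highest median difference. All 8 were tested, 6 were higher and 2 lower, against 49.3% of all probes higher, and 0 passed. The median was 0.22, and 5 genes were higher at an unadjusted limma p under 0.05, against 3.76% of all probes. Errfi1, which encodes an inhibitor of the EGF receptor, read 8.51, 8.35, 8.19 and 8.34 in WT and 8.69, 9.10, 8.85 and 9.01 in Cav3.1 KO. The groups were apart, and the gap between the highest WT and the lowest Cav3.1 KO array was formed by replicate 1 of each. The difference was 0.56 (SE 0.097, 1.48-fold, adjusted p 0.0848). It was 0.29 within scan set A and 0.79 within set B. Without Cav3.1 KO replicate 1 it was 0.64, with an adjusted p of 0.0438, and 0.232% of all probes were called. Without any other single array the limma adjusted p of Errfi1 was 0.119 to 0.228. With an intensity trend in the variance model Errfi1, Map3k6, Rhou and Hif3a were called, beside 0.392% of all probes.

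Map3k6, a kinase at the top of stress-activated MAP kinase cascades, read 6.32, 6.52, 6.48 and 6.45 in WT. In Cav3.1 KO it read 7.39, 6.96, 6.91 and 6.92, with replicate 1 far above the rest. The difference was 0.60 (SE 0.108, 1.52-fold, adjusted p 0.0942), and 1.204 with the blank subtracted, since the WT spots averaged 91.0. It was 0.96 within scan set A, where Cav3.1 KO replicate 1 is the single Cav3.1 KO array, 0.45 within set B and 0.70 with the scan set as a block. Without Cav3.1 KO replicate 1 the difference was 0.49 and the adjusted p 0.0222. Without any other single array the limma adjusted p of Map3k6 was 0.113 to 0.256.

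Ddit4, the inhibitor of the growth kinase complex mTORC1 known as REDD1, had the largest difference and also the largest spread. WT gave 7.97, 7.12, 8.15 and 7.40, and Cav3.1 KO gave 8.19, 8.05, 8.50 and 8.64. WT replicate 3 lay above Cav3.1 KO replicate 2, so the groups overlapped. The difference was 0.68 (SE 0.239, 95% interval 0.13 to 1.23, adjusted p 0.459). It was 0.69 within scan set A and 0.24 within set B, where its single WT array was the highest of that group. With the scan set as a block the difference was 0.47.

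Mertk, a receptor tyrosine kinase used in engulfing dead cells and synapses, read 7.92, 7.75, 8.05 and 8.08 in WT and 8.24, 8.12, 8.13 and 8.32 in Cav3.1 KO. The groups were apart by a narrow gap, and the difference was 0.25 (SE 0.0791, adjusted p 0.38). Irs2, an adaptor of the insulin receptor, read 9.47, 9.52, 9.36 and 9.41 in WT and 9.53, 9.70, 9.52 and 9.77 in Cav3.1 KO. Its groups nearly touched, Cav3.1 KO replicate 3 lying just above WT replicate 2. Its difference was 0.19 (SE 0.064, adjusted p 0.42). The remaining signalling genes overlapped between the groups. Pik3r1, the regulatory subunit of PI3 kinase, differed by 0.06 (SE 0.0507), the MAP kinase phosphatase gene Dusp4 by -0.03 (SE 0.0454) and the interleukin-6 receptor gene Il6ra, whose spots were dim, by -0.01 (SE 0.0348), or -0.02 with the blank subtracted.

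Of the genes acting on small GTPases, G proteins and the cytoskeleton, 5 of 6 were tested and 0 passed. Of these 3 were higher and 2 lower, against 49.3% of all probes higher. Rhou, a small GTPase gene, stood apart from the rest. It read 8.52, 8.04, 8.16 and 8.15 in WT and 8.997, 8.86, 8.74 and 8.81 in Cav3.1 KO. All Cav3.1 KO arrays were above WT, in which replicate 1 was highest. The difference was 0.63 (SE 0.103, 1.55-fold, adjusted p 0.069), 0.76 within scan set A and 0.64 within set B. Without WT replicate 1 it was 0.74, with an adjusted p of 0.0134, beside 0.175% of all probes called. Without any other single array the limma adjusted p of Rhou was 0.0986 to 0.217.

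Rhob, a small GTPase gene whose product turns over rapidly, split by scan set. WT read 6.97, 6.90, 7.27 and 7.17, and Cav3.1 KO read 6.95, 7.26, 7.56 and 7.64. Cav3.1 KO replicate 1 lay among the WT arrays, and the difference of 0.27 (SE 0.157, adjusted p 0.777) was 0.07 with the scan set as a block. Rasd1, a Ras-like GTPase first known for its induction by dexamethasone, ran from 9.27 to 9.81 over the WT arrays and from 9.37 to 9.96 over the others. The groups overlapped nearly in full, with a difference of 0.13 (SE 0.149, adjusted p 0.962) that turned sign without Cav3.1 KO replicates 2 and 3. Rgs2, which shortens G protein signals, differed by -0.02 (SE 0.0804). Fam107a, an actin-binding gene induced by stress in the hippocampus, differed by -0.02 (SE 0.0853, 95% interval -0.21 to 0.18), and both signs turned when single arrays were left out.

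In metabolism and transport 7 of 7 genes were higher, by 0.02 to 0.17, against 49.3% of all probes higher, and 0 passed. All but Pnpla2 had spots averaging under 100. An unadjusted limma p under 0.05 was reached by 4 of the 7, against 3.76% of all probes in the higher direction. Pnpla2, the lipase that starts the breakdown of stored fat, read 6.91, 6.91, 6.93 and 6.86 in WT and 7.04, 7.08, 7.08 and 7.11 in Cav3.1 KO. The groups were apart, the arrays of each group lay close together, and the difference was 0.17 (SE 0.027, adjusted p 0.0596, 0.30 with the blank subtracted). The adjusted p was 0.0489 without a detection filter, where Pnpla2 and Hif3a were called beside 0.235% of all probes, but 0.255 with the intensity trend, 0.423 with median scaling and 0.647 in the value table. The difference was 0.151 within scan set A and 0.155 within scan set B.

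Sult1a1, a sulfotransferase of phenols, read 6.14, 6.07, 6.16 and 6.05 in WT and 6.28, 6.27, 6.21 and 6.17 in Cav3.1 KO. Its groups did not overlap, although WT replicate 3 and Cav3.1 KO replicate 4 nearly met. The difference was 0.13 (SE 0.0375, adjusted p 0.34), or 0.49 with the blank subtracted. Pdk4, the kinase that shuts off pyruvate entry into mitochondria, read 6.34, 6.24, 6.28 and 6.33 in WT and 6.38, 6.38, 6.38 and 6.36 in Cav3.1 KO. The Cav3.1 KO arrays were nearly equal and just above WT, with a difference of 0.08 (SE 0.0288, adjusted p 0.484), or 0.24 with the blank subtracted.

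Tgm2, a transglutaminase that crosslinks proteins, read 6.52, 6.45, 6.54 and 6.56 in WT and 6.57, 6.63, 6.59 and 6.58 in Cav3.1 KO. The groups were apart by a hair, and the difference was 0.07 (SE 0.0317, adjusted p 0.616), or 0.17 with the blank subtracted. The last 3 genes overlapped between the groups. Xdh, which makes uric acid, differed by 0.08 (SE 0.0535), the amino acid transporter gene Slc38a2 by 0.06 (SE 0.0542), and Angptl4, an inhibitor of lipoprotein lipase, by 0.02 (SE 0.0235). Their spots were dim, those of Angptl4 averaging 67.7 in WT, and with the blank subtracted the differences were 0.28 for Xdh, 0.21 for Slc38a2 and 0.12 for Angptl4.

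The metallothioneins, small metal-binding proteins abundant in astrocytes, were the brightest genes of the list. Mt2 read 12.24, 12.01, 12.46 and 12.31 in WT and 12.46, 12.60, 12.72 and 12.78 in Cav3.1 KO. Cav3.1 KO replicate 1, at 12.464, was just above WT replicate 3, at 12.457, so the groups barely separated. The difference was 0.39 (SE 0.102, adjusted p 0.267), and 0.26 with the scan set as a block. Mt1 read 13.44, 13.10, 13.49 and 13.57 in WT and 13.44, 13.56, 13.49 and 13.57 in Cav3.1 KO, overlapping in full, where equal values reflect equal ranks after quantile normalisation. Its difference was 0.11 (SE 0.0936, 95% interval -0.10 to 0.33, adjusted p 0.918), and whether the pair differ in their response was not tested. Astrocyte markers averaged between 8.78 and 8.87 on the WT arrays and between 8.79 and 8.91 on the others, so the groups overlapped. By gene 5 of these 6 markers were higher and 1 lower, against 49.3% of all probes higher, and 0 passed. The part of astrocyte content in the metallothionein values was not tested. Lcn2, the siderophore-binding protein of acute inflammation, differed by 0.04 (SE 0.0421, 95% interval -0.06 to 0.14).

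**Figure D4:**
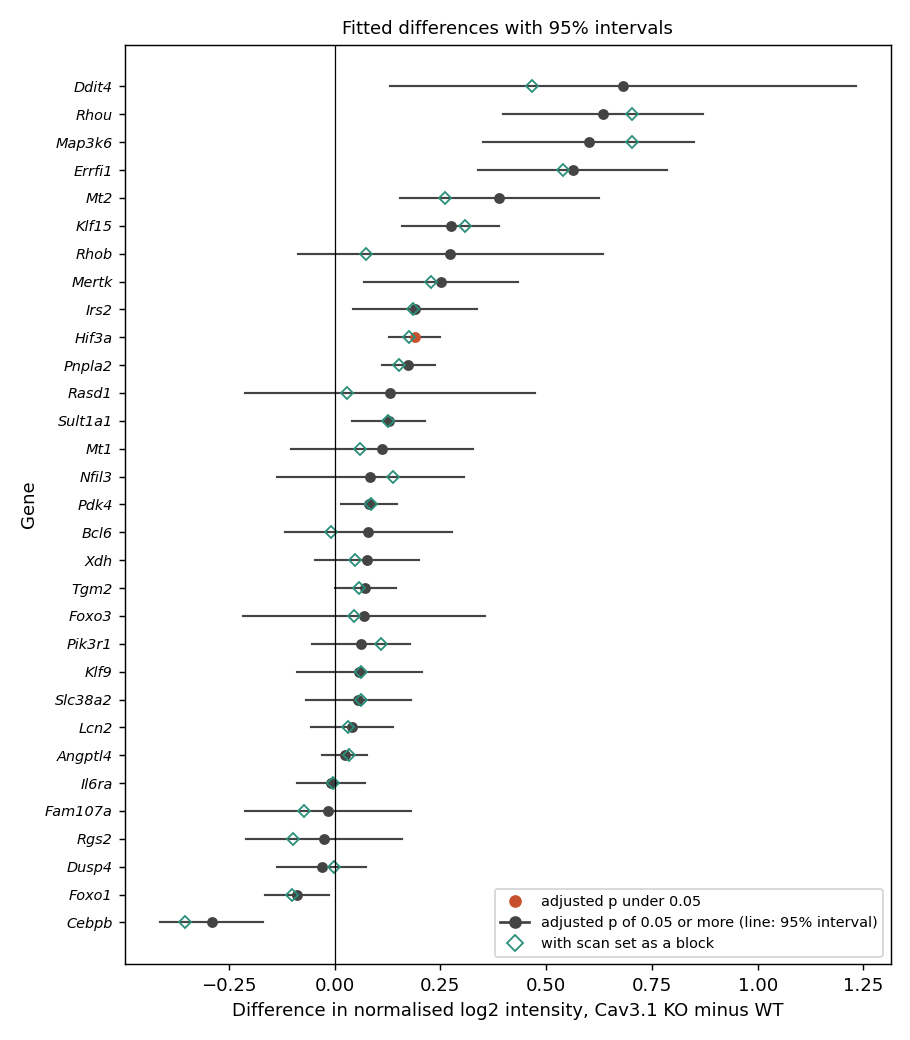
Fitted difference in normalised log2 intensity, Cav3.1 KO minus WT (horizontal axis), of each of the 31 genes with its 95% interval (dots and lines, n = 4 arrays a group), and the difference with the scan set as a block (diamonds). The estimates run from -0.29 for Cebpb to 0.68 for Ddit4, Hif3a is the gene past the threshold, and Ddit4, Rhob and Mt2 move most towards 0 with the block while Map3k6 moves away.

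The other genes of the pathway were read for comparison from a list drawn up with earlier results of these data known, so its count is no independent evidence. Of 18 tested genes 7 rose and 0 fell, against 0.199% and 0.0898% of all probes, with a median difference of 0.53. The risen genes were Sgk1, Nfkbia, Tsc22d3, Cdkn1a, Arrdc2, Slc2a1 and Gjb6, which differed by between 0.38 for Gjb6 and 1.24 for Sgk1. The count was 4 with the scan set as a block, 3 without WT replicate 4, and 0 within the first range of chip numbers. Fkbp5, the receptor co-chaperone that often serves as a reporter of the hormone, differed by 0.15 (SE 0.15, adjusted p 0.943). The median of the 31 genes was 0.08, and whether the lists differ was not tested. A list drawn up with results known cannot show that the 31 genes respond less.

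The receptors and their partners did not share the upward direction. Of 9 tested genes 1 was higher and 8 lower, against 49.3% of all probes higher. By limma 0 passed, with 1 gene in the lower direction and 0 in the higher at an unadjusted p under 0.05. Of all probes 4.34% were lower and 3.76% higher at that p. Nr3c1, the glucocorticoid receptor gene, differed by -0.08 (SE 0.0326, adjusted p 0.559), and Nr3c2, the mineralocorticoid receptor gene, by -0.07 (SE 0.094, adjusted p 0.975), a sign that turned without WT replicate 2. Hsp90aa1, the stress-inducible chaperone gene, named here after its values were seen, was the gene on the higher side, at 0.22 (SE 0.10, adjusted p 0.645).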

How the data were processed

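The authors deposited, per the file headers, a median spot intensity at 635 nm for each array from 3 scan gains, not normalised; the sources used here do not say how the gains were merged. A second intensity, headed as background, followed its own spot (r of the logarithms 0.994 to 0.996) and was not used. The authors' deposited value table, a linear intensity with a median of about 25 on each array, served as an alternative.

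Spot intensities were corrected with normexp (offset 50), put on the log2 scale, averaged per probe and quantile normalised. Probes above the 95th percentile of blank spots on at least 4 arrays were kept, which left out 2238 dim probes, and 84 more held a spot not marked good at every gain. This flag rule was chosen after the results of a milder rule, used first, were known. The test was limma (version 3.58.1, lmFit and eBayes, under R 4.3.3), checked on simulated data, with exact two-sided permutation over 70 arrangements for single values. Alternatives were other background, normalisation and filter steps, an intensity trend, blocks and left-out arrays; the milder flag rule was kept as one, those by chip number were added after seeing the data, and the boundary between scan sets was set after reading the headers. Genes, lists, markers and motifs were chosen with earlier results of these data known. By the naming rule, array values are given for genes past the threshold and those with the smallest p, up to 16, and Mt1 was added after its values were seen. The number of arrays limits the precision.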

Additional observations from a re-analysis of the deposited data

Results flagged for a closer look

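In the 62 groups of 4 arrays examined over the 31 genes, a value stood far from the other 3 in 2 groups, where chance gives about 1 in 20. Both were on Cav3.1 KO replicate 1, the Cav3.1 KO array of scan set A. Its Map3k6 value was 7.39, with the next at 6.96, and without this array the difference was 0.49 in place of 0.60. Its Cebpb value was 8.21, with the next at 8.39, and without this array the difference was -0.24 in place of -0.29.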

How the results depend on the processing

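The 61 calls over all probes became 36 with median scaling, 31 in the value table, 23 with the scan set as a block, 7 within the first chip number range, 17 without Cav3.1 KO replicates 2 and 3, and 16 to 49 when single arrays were left out, the fewest without WT replicate 4. Of the 31 genes the number called, 1 by default, was 0 with median scaling, either block, the first chip number range, Cav3.1 KO replicates 2 and 3 left out, or the dimmer probe of genes with several. It was 2 without a detection filter (Hif3a, Pnpla2; 0.235% of all probes), 4 with an intensity trend (Hif3a, Map3k6, Rhou, Errfi1; 0.392% of all probes), and 0 to 2 without single arrays. The same-numbered arrays correlated at -0.115 to 0.0109 in their deviations. This cannot exclude a pairing, since replicates 2 and 4 of the groups lie in different scan sets. With the replicate block 8 probes, 0 of the 31 genes and 2 other pathway genes were called. Other pathway genes called, 7 by default, were 4 with the scan set as a block, 0 within the first chip number range, 3 without Cav3.1 KO replicates 2 and 3, and 3 to 7 without single arrays. The milder rule on spot flags that was used first gave 61 probes and Hif3a (adjusted p 0.0408).

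The number of genes on the higher side was 23 to 27 under every alternative. The median difference was 0.17 with the blank subtracted, 0.12 in the value table and 0.0847 to 0.112 without single arrays. The 15 genes with an unadjusted limma p under 0.05 kept their direction in all 21 alternatives fitted, as did 8 others. Much of this was fixed in advance. The filter, flag, trend, chip-block and replicate-block settings leave a difference unchanged. Where the groups are apart, leaving out arrays cannot turn the sign. The share of all probes that kept their direction was not counted, so the stability is no support for the genes. Signs turned for genes near 0: Bcl6 with the scan set as a block (-0.0073), Klf9 with median scaling (-0.0038) and in the value table (-0.011), Foxo3 in the value table (-0.0049) and the first chip number range (-0.0067), and Rgs2 (0.0364) and Il6ra (0.0013) in that range. Without Cav3.1 KO replicates 2 and 3 they turned for Rasd1 (-0.0442), Dusp4 (0.0064), Fam107a (0.0855) and Nr3c2 (0.0302). With single arrays left out the ranges were -0.0134 to 0.180 for Foxo3, -0.0930 to 0.0287 for Rgs2, -0.0252 to 0.0107 for Il6ra, -0.0769 to 0.0468 for Fam107a and -0.129 to 0.0132 for Nr3c2. The causes were not tested. Signal over background limits the 8 genes whose spots averaged under 100, which were Hif3a, Sult1a1, Pdk4, Tgm2, Xdh, Slc38a2, Angptl4 and Il6ra.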
